A study of Homo sapiens with 8 samples.

Results

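The genes of the JAK kinases, JAK1, JAK2, JAK3 and TYK2, and of the interferon receptor chains, IFNGR1, IFNGR2, IFNAR1 and IFNAR2, were followed over 8 microarrays of KBM7 cells. KBM7 is a human myeloid leukaemia line with a nearly haploid genome, in which a gene-trap insertion into the only copy of a gene can stop its transcript. The members were all probe sets that the platform's annotation assigns to these genes. These were 22 of the 49395 probe sets on the array, for 8 of the 18132 genes with a probe set of their own, and 0 further probe sets named a member together with another gene. The questions were whether the other kinases differ where JAK2 is trapped, and whether IFN-gamma raises the transcripts of its own receptor and kinases in wild-type cells.

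An interferon receptor has no enzyme of its own. Each chain holds a JAK kinase on its tail, and binding of the ligand brings the kinases together, which phosphorylate the chains and then the STAT transcription factors. In the IFN-gamma receptor, IFNGR1 binds the ligand and carries JAK1, and IFNGR2 joins it and carries JAK2. In the receptor of type I interferons, IFNAR1 carries TYK2 and IFNAR2 carries JAK1. JAK2 also serves the receptors of several blood cell growth factors, and JAK3 works with the common gamma chain of interleukin receptors, mostly in lymphocytes.

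Wild-type (WT) cells were measured unstimulated on 2 arrays: replicate 1 was paired with the IFN-gamma arrays as their control, and replicate 2 with the TNF-alpha arrays. The other 6 conditions had 1 array each. They were WT cells and JAK2 mutant cells after 6 hours with 100 ng/ml of IFN-gamma, WT cells and TNFRSF1A mutant cells after 6 hours with 10 ng/ml of TNF-alpha, and each mutant unstimulated. TNFRSF1A encodes a receptor for TNF-alpha. Both mutants carry a gene trap, and how many clones each line came from is not given in the sources used here, so the trapped gene and other differences between a mutant line and WT cannot be told apart. The labels do not say whether the WT samples came from separate cultures.

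Values are log2 of the authors' normalised intensity, and a value is comparable between arrays for the same probe set but not between probe sets. Array medians ran from 63.9 to 66.9 on the intensity scale. A value counted as lying in the background range when it fell below the upper quartile of the array's 23 background control probe sets, which ran from 5.76 to 6.04 (log2) over the arrays. A gene was represented by its brightest probe set, and the 11529 genes that reached a log2 value of 6 on any array were compared, all 8 members among them. A difference was called at 2-fold, a log2 difference of 1, without a p-value, since each condition had 1 array. The spread it is set against is the SD over genes of the difference between the WT arrays, 0.38 on the log2 scale. Precision is limited by the number of arrays. Of the myeloid and progenitor markers, 5 of 8 measured were above the background range in WT (MPO, KIT, CEBPA, CD34 and ANPEP). For fibroblast and epithelial cells it was 0 of 5 on 7 arrays and 1 of 5, PDGFRB, in the JAK2 mutant with IFN-gamma. Some markers of other blood lineages were above the range in WT too. They were 2 of 4 measured for erythroid cells (HBB and ALAS2) and 2 of 5 for megakaryocytes (ITGA2B and GP9). T and B cell markers are given below.

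The targeted gene was checked first. All 3 JAK2 probe sets lay in the background range on both arrays of JAK2 mutant cells and above it on the other 6. The brightest, 11733372_a_at, read 6.28 in WT replicate 1, 6.81 after IFN-gamma in WT, 5.08 in the unstimulated JAK2 mutant and 5.32 in the JAK2 mutant with IFN-gamma. In the TNF-alpha experiment it read 6.38 in WT replicate 2, 6.14 in WT with TNF-alpha, 6.66 in the TNFRSF1A mutant and 6.39 in that mutant with TNF-alpha. The mutant arrays were the lowest and did not overlap with the others, as was so for 18.3% of all genes. No other gap between neighbours in the order of the 8 values passed the spread. Below the background range a fold has no measured size. The unstimulated difference of the 3 probe sets, read as a bound against the top of that range, was at least 0.41, 0.63 and 0.11 (log2), and with IFN-gamma on both sides it was at least 1.06, 1.26 and 0.99. The other targeted gene, TNFRSF1A, was read by its brightest probe set at 6.56 and 6.55 in its own mutant and between 9.23 and 9.83 on the other 6 arrays.

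**Figure D1:**
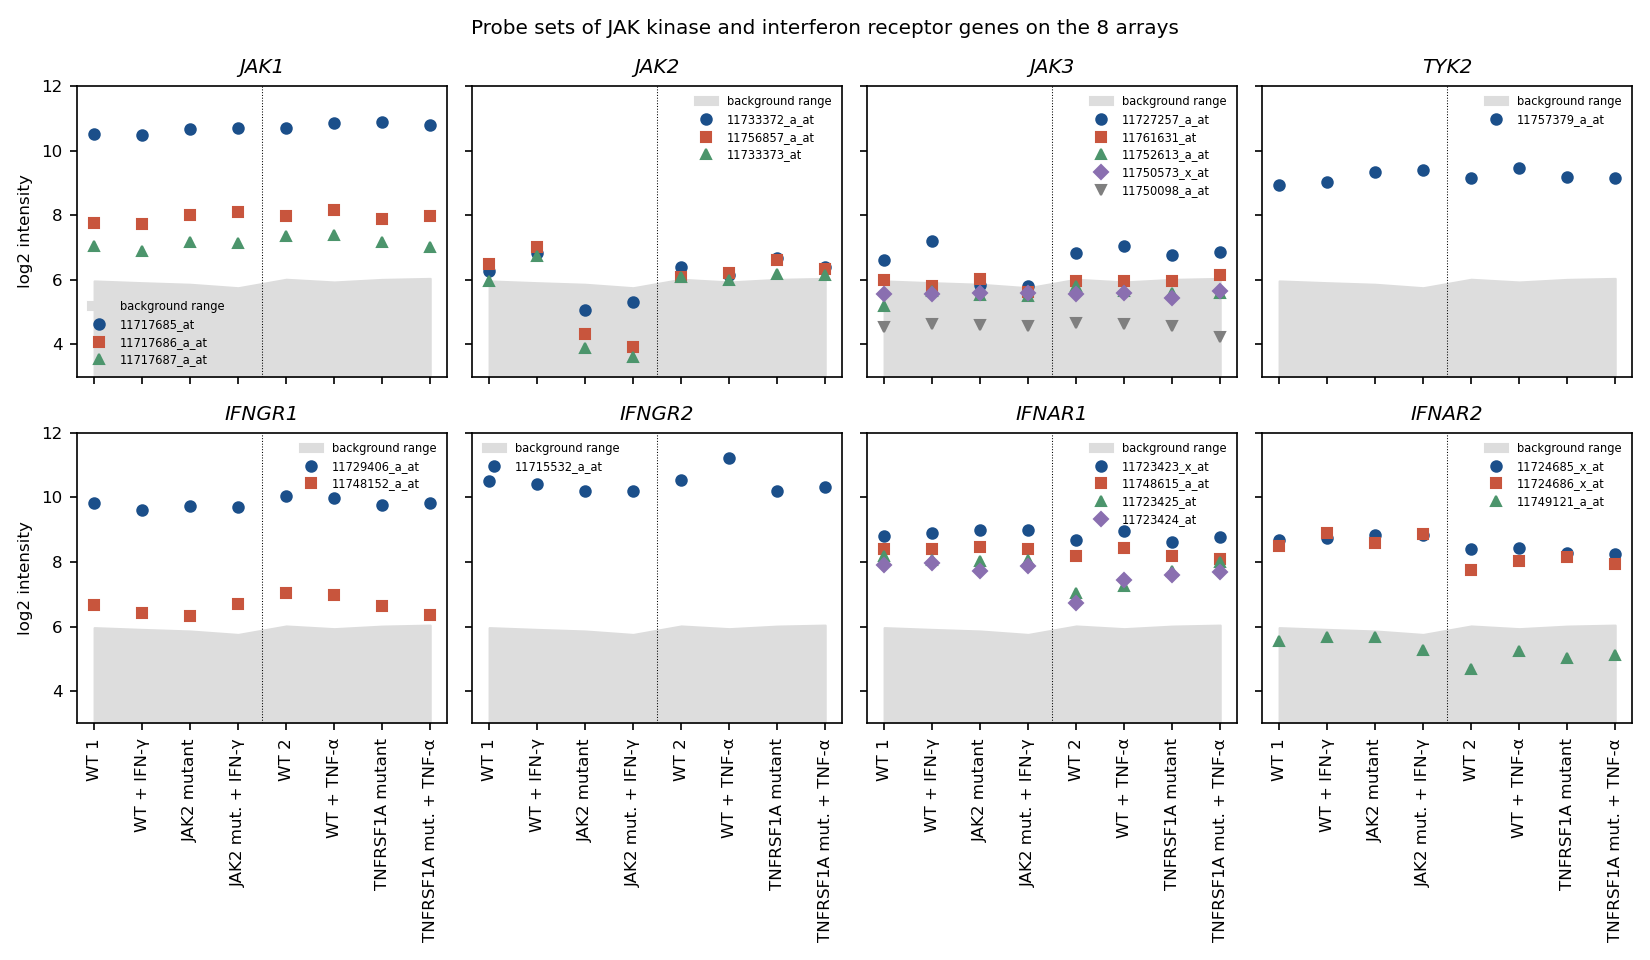
Log2 intensity (y axis) of all 22 probe sets of the 8 genes on the 8 arrays (x axis), 1 panel a gene; the grey area is the background range and the dotted line separates the IFN-gamma from the TNF-alpha experiment. The 3 JAK2 probe sets drop into the grey area on the JAK2 mutant arrays, and the brightest JAK3 probe set lies lowest on the same arrays, at 5.82 and 5.80.

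Of the other kinases, JAK3 was lower in JAK2 mutant cells, and JAK1 differed by less than the spread. TYK2 stood slightly higher, past the spread only without cytokine and against WT replicate 1. JAK3 is the kinase of the common gamma chain. Its brightest probe set, 11727257_a_at, read 6.63 in WT replicate 1, 7.20 after IFN-gamma in WT, 5.82 in the JAK2 mutant and 5.80 in the JAK2 mutant with IFN-gamma. On the arrays of the TNF-alpha experiment it read 6.82, 7.06, 6.77 and 6.87, in the order WT replicate 2, WT with TNF-alpha, TNFRSF1A mutant and TNFRSF1A mutant with TNF-alpha. Both JAK2 mutant arrays lay below all 6 others, with a gap of 0.80 to the next value. Of all compared genes, 18.3% had both JAK2 mutant arrays below the other 6.

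The JAK3 difference passed 2-fold where both sides had received IFN-gamma, at 1.40 lower (2.64-fold), and stayed under it without cytokine, at 0.80 lower (1.74-fold) than WT replicate 1 and 0.99 lower than WT replicate 2. It rests on that probe set. The next JAK3 probe set, 11761631_at, read between 5.61 and 6.14 and was above the background range on 4 of 8 arrays. It was the 1 JAK3 set above that range on both arrays of the unstimulated comparison, where it differed by 0.04, upward. The remaining 3 lay in the background range on every array. The unstimulated JAK2 mutant value of the brightest set lay in that range too, which makes its unstimulated difference a bound of at least 0.76. Its value in the JAK2 mutant with IFN-gamma, 5.80, lay just above the top of the range on that array, 5.76. The size of the called difference is therefore uncertain as well.

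Markers of lymphocytes, in which JAK3 is best known, were set beside it. Of the T cell markers, 1 of 5 (CD3D) was above the background range on every array. Their summed intensity was 587 and 601 in JAK2 mutant cells, 556 and 558 in TNFRSF1A mutant cells, and between 767 and 1168 in WT. Summed B cell markers, of which 2 or 3 of 4 measured were above the background range (CD79A and PAX5, on 5 arrays also CD79B), were 775 and 768 in JAK2 mutant cells and between 802 and 962 elsewhere. Summed myeloid and progenitor markers were 2036 and 2072 in JAK2 mutant cells, 2097 and 1961 in TNFRSF1A mutant cells and between 1569 and 1732 in WT. Of 6 compared, 1 (PRTN3, a neutrophil granule protease, in the background range in WT, so by at least 0.85) was called higher in the JAK2 mutant without cytokine and 3 (PRTN3, MPO and CEBPA) with IFN-gamma on both sides, with medians of 0.52 and 0.62. Over all genes, 0.226% and 0.347% were called higher in these comparisons. The same 3 markers were called without cytokine against WT replicate 2, where 2.9% of all genes were. The part of these markers in the JAK3 and TYK2 values was not tested. In bulk RNA, fewer expressing cells and less RNA per cell cannot be told apart.

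TYK2, the kinase of IFNAR1, has 1 probe set. It read 8.95 in WT replicate 1, 9.04 after IFN-gamma in WT, 9.35 in the JAK2 mutant and 9.39 in the JAK2 mutant with IFN-gamma. On the other arrays it read 9.15 in WT replicate 2, 9.46 in WT with TNF-alpha, 9.17 in the TNFRSF1A mutant and 9.15 in that mutant with TNF-alpha. The JAK2 mutant values were above all WT values of the same experiment but below that of WT with TNF-alpha. The unstimulated difference was 0.41 (1.32-fold) against WT replicate 1, just past the spread, and 6.03% of genes differed at least as far upward. Against WT replicate 2 it was 0.20, within the spread.

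JAK1, which serves both interferon receptors, read 10.53, 10.49, 10.66 and 10.69 on the arrays of the IFN-gamma experiment, in the order WT replicate 1, IFN-gamma in WT, JAK2 mutant and JAK2 mutant with IFN-gamma. The values of the TNF-alpha experiment ran from 10.71 to 10.89. JAK1 in the mutant was thus 0.13 above WT replicate 1 and 0.05 below WT replicate 2. Its dimmer probe sets were higher in the unstimulated mutant than in WT replicate 1 by 0.25 and 0.12, and all 3 stayed within the spread.

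Counted over the 8 genes by the deposited values, 1 (JAK2) passed 2-fold downward in the unstimulated JAK2 mutant and 0 upward, where 1.91% of all compared genes passed downward and 0.226% upward. With values in the background range set to its top, JAK2 no longer passed and the count was 0. With IFN-gamma on both sides 2 of 8 (JAK2 and JAK3) were lower and 0 higher, against 2.67% and 0.347% of all genes. By probe set, 3 of the 18 member probe sets compared were lower without cytokine, where 1.64% of all were, and 4 of 18 with IFN-gamma, where 2.26% were. At the smaller threshold of the spread, TYK2 was the 1 member higher without cytokine, as were 7.26% of genes, and JAK2 and JAK3 were lower, as were 8.22%. With IFN-gamma on both sides 0 members were higher by that threshold, beside 10.2% of genes, with TYK2 at 0.35, and JAK2 and JAK3 were lower, beside 9.8%. No other JAK gene was 2-fold higher in the cells with trapped JAK2.

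A limma fit of experiment, genotype and cytokine as additive terms uses all 8 arrays and has 2 residual degrees of freedom, which hold the interactions of genotype and cytokine. Its JAK2 mutant term was -1.10 for JAK3 (SE 0.15, limma adjusted p = 0.0091), and both mutant arrays were lower than both WT arrays of the experiment. Of the mutant values, 1 lies in the background range and the other just above it. The 2 mutant arrays are 1 line, without and with IFN-gamma. The SE and p of the JAK2 mutant terms therefore measure no spread between lines or repeats of a condition. The term for TYK2 was 0.38 (SE 0.094, limma adjusted p = 0.041), with both mutant arrays higher. With JAK2, whose term has no measured size because its mutant values lie in the background range, 3 of 8 members passed, where 26% of all genes did. The term for JAK1 was 0.17 (limma adjusted p = 0.19). A fit of the 7 conditions, with 1 residual degree of freedom, called 0 members in any comparison; JAK2 mutant cells had 19 called genes without cytokine and 21 with IFN-gamma there.

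**Figure D2:**
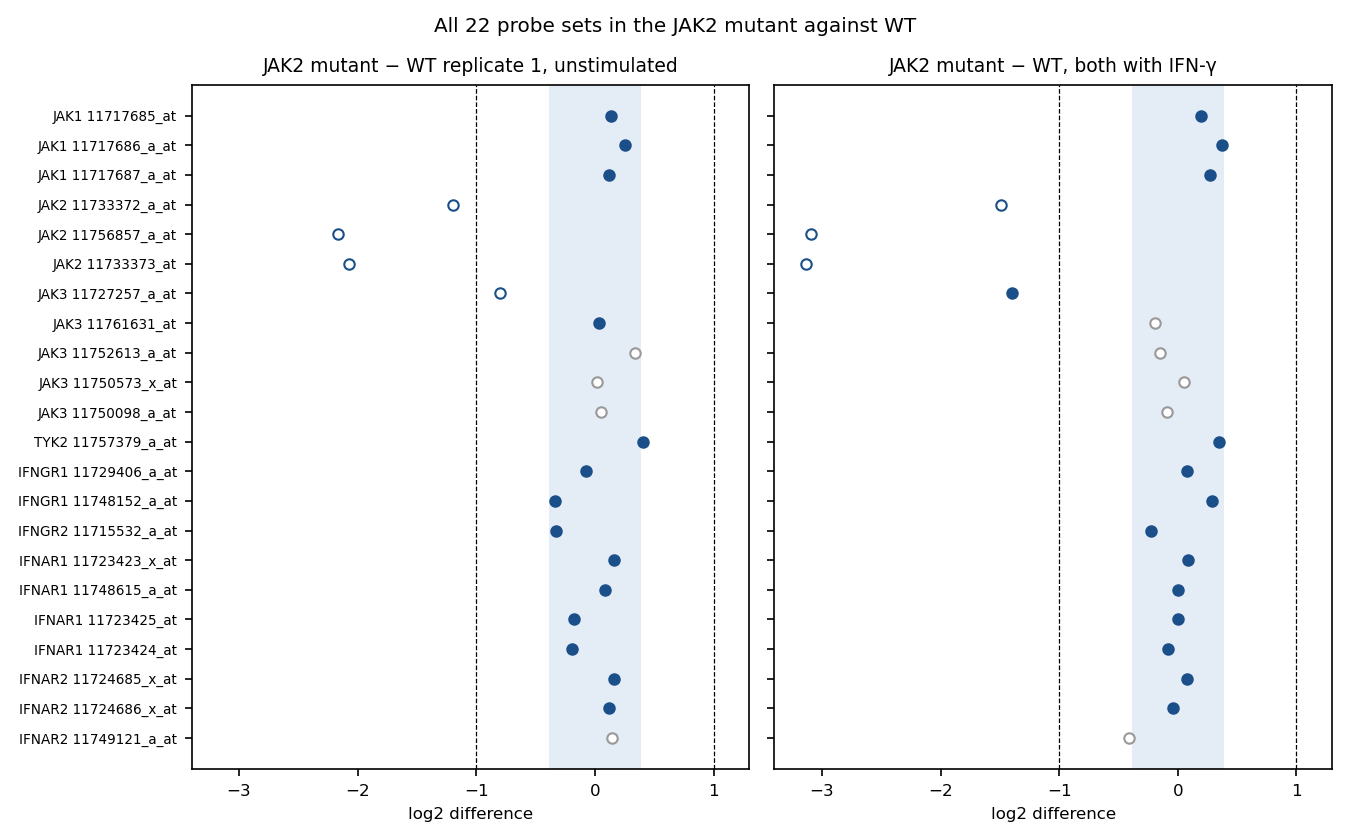
Log2 difference (x axis) of each of the 22 probe sets (y axis) between JAK2 mutant and WT, unstimulated on the left and with IFN-gamma on the right. Open blue points have the lower value in the background range, open grey points have both there, the band is 1 SD of the WT pair (0.38), and dashed lines mark 2-fold; the JAK2 sets and the brightest JAK3 set lie left of the band in both panels.

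The actin 3' to 5' intensity ratio, a reading of RNA integrity and of labelling length, was 5.74 and 6.47 in JAK2 mutant cells and between 3.27 and 5.53 on the other arrays. Its part in the differences of JAK3 and TYK2 was not tested. Over all genes, 26.6% had both JAK2 mutant values above all 6 other arrays and 18.3% had both below. Among the members, IFNAR1 and IFNAR2 did so upward, and JAK2, JAK3 and IFNGR2 downward. The receptor chains owed this to small distances, such as 10.20 and 10.19 for IFNGR2 in the JAK2 mutant beside 10.20 in the TNFRSF1A mutant.

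IFN-gamma raised 0 of the 8 genes by 2-fold in WT cells, where 0.607% of all genes passed upward and 0 downward (0%). The largest differences were those of JAK3 and JAK2. JAK3 stood 0.57 (1.48-fold) above WT replicate 1, and 1.45% of genes were at least as high. JAK2 stood 0.54 (1.45-fold) above it, and 1.64% were at least as high. These 2 of 8 members were beyond the spread upward, where 3.01% of genes were.

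The JAK2 reading was shared by its probe sets, which were higher in WT with IFN-gamma than in WT replicate 1 by 0.54, 0.52 and 0.77. WT with IFN-gamma gave the highest of the 8 values for each of them, at 6.81, 7.01 and 6.74. The control array mattered for its size and rank. Against WT replicate 2, JAK2 was 0.43 and JAK3 0.38 higher, and then 12.1% and 14.9% of genes were at least as high. For JAK3, the other probe set above background in WT replicate 1 read 6.00 there and 5.80 with IFN-gamma, so the brightest set had no second reading in its direction.

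The ligand-binding chain IFNGR1 read 9.81 in WT replicate 1 and 9.62 with IFN-gamma, and its partner IFNGR2 10.52 and 10.42. JAK1 differed by -0.04, TYK2 by 0.09, IFNAR1 by 0.09 and IFNAR2 by 0.06. A dimmer IFNAR2 probe set, 11724686_x_at, stood 0.41 above WT replicate 1 with IFN-gamma. The chains of the receptor for IFN-gamma were therefore no higher after 6 hours of the cytokine, and the median of the 8 members was 0.08 beside -0.02 over all genes.

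In JAK2 mutant cells IFN-gamma moved 0 of 8 members by 2-fold, as it did 0% of all genes in either direction. JAK3 differed by -0.03, TYK2 by 0.04, JAK1 by 0.03, IFNGR1 by -0.05 and IFNGR2 by less than 0.01. The JAK2 difference of 0.24 lies within the background range on both arrays. JAK3 lies in that range on the unstimulated array and just above it with IFN-gamma. The readout of the pathway was checked beside them. All 8 of the 8 established IFN-gamma targets IRF1, GBP1, GBP2, GBP5, TAP1, CXCL10, CIITA and SOCS1 rose by 2-fold or more in WT and 0 did in the JAK2 mutant. The count was 6 of 8 against WT replicate 2, without GBP2 and SOCS1, which were themselves higher in WT replicate 2 than in WT replicate 1 by 2.09 and 1.52. Their median difference was 2.91 in WT (2.73 with values in the background range set to its top) and 0.47 in the mutant (0.16 so set), beside -0.02 and 0.00 over all genes. The difference between the responses of a member was not called by the limma fit of the conditions for any of the 8.

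**Figure D3:**
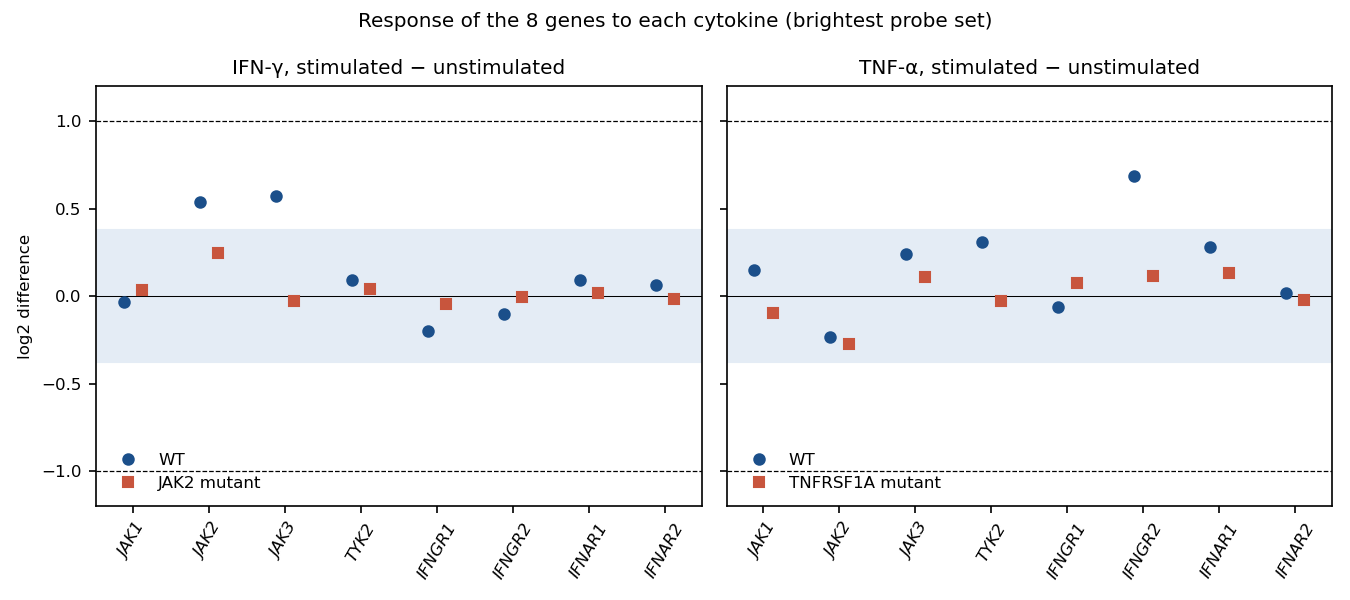
Log2 difference between stimulated and unstimulated cells (y axis) of the brightest probe set of each gene (x axis), with IFN-gamma on the left and TNF-alpha on the right; circles are WT and squares the mutant of the same experiment, the band is 1 SD of the WT pair (0.38) and dashed lines mark 2-fold. JAK2 and JAK3 with IFN-gamma and IFNGR2 with TNF-alpha are the WT points above the band, at 0.54, 0.57 and 0.68.

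The start regions of JAK2 and JAK3 are shown because these were the members that stood highest with IFN-gamma and lowest in the JAK2 mutant. RefSeq promoter windows (GRCh38.p14) matched 7 of the 8 genes, all but IFNAR2, and the 250 bases before each listed start were searched on both strands. Capitals mark a match to the NF-kappaB consensus, and lower case all other bases.
JAK2, chr9:4984140-4984389, plus strand, the most upstream of 4 listed starts: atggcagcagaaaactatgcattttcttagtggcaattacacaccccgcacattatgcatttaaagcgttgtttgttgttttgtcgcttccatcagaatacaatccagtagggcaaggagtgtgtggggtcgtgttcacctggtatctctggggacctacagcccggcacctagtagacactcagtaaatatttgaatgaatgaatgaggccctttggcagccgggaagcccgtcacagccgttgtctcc
JAK3, chr19:17847983-17848232, minus strand: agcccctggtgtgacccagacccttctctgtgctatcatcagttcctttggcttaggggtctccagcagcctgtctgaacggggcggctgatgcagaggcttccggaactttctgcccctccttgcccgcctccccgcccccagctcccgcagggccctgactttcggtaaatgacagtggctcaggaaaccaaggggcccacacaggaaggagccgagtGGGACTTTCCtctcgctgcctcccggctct

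The STAT dimer motif GAS (TTCNNNGAA) was in none of the windows of the 7 members, beside 6.57% of all 35116 windows, and the interferon-stimulated response element core (GAAANNGAAA) in none, beside 3.02%. The NF-kappaB consensus was in the windows of JAK3 and IFNGR2 and in 5.21% of all. These counts describe the letters in these windows only.

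Among the receptor chains, read by their brightest probe sets, IFNGR2 with TNF-alpha gave the largest cytokine difference. IFNGR2, which brings JAK2 to the receptor, read 10.54 in WT replicate 2 and 11.23 in WT with TNF-alpha. In the TNFRSF1A mutant it read 10.20 unstimulated and 10.32 with TNF-alpha, and on the arrays of the IFN-gamma experiment between 10.19 and 10.52. WT with TNF-alpha was thus alone at the top, 0.68 (1.61-fold) above the next array, and the other 7 arrays lay within 0.35 of each other.

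That difference is under 2-fold. TNF-alpha moved 0 of 8 members past it in WT, where 0.312% of genes passed upward and 0.00867% downward. IFNGR2 was the 1 member beyond the spread, as were 2.95% of genes, and 0.755% of genes were at least as high. Against WT replicate 1 the value was 0.71, at which 3.55% of genes were at least as high. In TNFRSF1A mutant cells TNF-alpha gave 0.11, with 0 of 8 members called and 0% of all genes.

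The IFNGR2 window holds the same decamer as that of JAK3, on the opposite strand. The pair is shown here as 30 bases around each match, with the decamer in capitals.
JAK3, chr19:17847993-17848022, minus strand: ggagccgagtGGGACTTTCCtctcgctgcc
IFNGR2, chr21:33403304-33403333, plus strand: tcccggagcgGGAAAGTCCCgcgcgggggc

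The match lies 30 to 21 bases before the JAK3 start and 99 to 90 bases before the listed IFNGR2 start. The JAK3 window lies outside the gene's annotated span, and the IFNGR2 window inside it. The decamer as JAK3 has it was in 63 of the 35116 windows, 0.179%, and was picked after it had been seen in these genes. With TNF-alpha in WT, JAK3 differed by 0.24, within the spread.

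The brightest IFNGR1 probe set ran from 9.62 in WT with IFN-gamma to 10.03 in WT replicate 2, and no neighbours in the order of the 8 arrays differed beyond the spread. The ends of that order did: WT with IFN-gamma was 0.42 below WT replicate 2, beyond the spread, where 10.1% of genes were lower by as much as the spread, and 0.20 below WT replicate 1. In the JAK2 mutant it was 0.07 lower without cytokine and 0.08 higher with IFN-gamma on both sides. Its dimmer set, 11748152_a_at, ran from 6.32 to 7.03, with differences of -0.34 and 0.29 in the same comparisons and of -0.64 in the TNFRSF1A mutant with TNF-alpha on both sides. IFNGR2 was 0.32 and 0.23 lower in the JAK2 mutant, within the spread.

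Against WT replicate 2 the unstimulated TNFRSF1A mutant had 0 of 8 members called, where 0.373% of genes were higher and 0.607% lower. Its largest member differences were -0.34 for IFNGR2 and 0.28 each for JAK2, upward, and IFNGR1, downward. With TNF-alpha on both sides 0 of 8 were called, beside 0.304% of genes higher and 0.919% lower, and IFNGR2 came nearest at 0.91 lower (1.88-fold). This comparison shares its WT array with the TNF-alpha response, so it is not a separate reading of the high IFNGR2 value.

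The type I receptor genes showed a disagreement among their own probe sets. IFNAR1 and IFNAR2 lie on chromosome 21 in the order IFNAR2, IL10RB, IFNAR1, IFNGR2, as neighbours. The brightest IFNAR1 probe set, 11723423_x_at, had its lowest value at 8.62 and a range of 0.37 over the 8 arrays, and 11748615_a_at ran from 8.09 to 8.47. The other 2 were low in WT replicate 2. Set 11723425_at read 8.19 in WT replicate 1 and 7.05 in WT replicate 2, and set 11723424_at 7.91 and 6.72.

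WT replicate 2 was therefore lower than WT replicate 1 by 1.14 and 1.19 in 2 IFNAR1 probe sets and by 0.15 and 0.19 in the other 2. They were the 2 of 18 member probe sets past 2-fold downward in the WT pair, where 1% of all were. At the gene level 0 of 8 members were called, beside 0.954% of genes higher and 1.03% lower. WT with TNF-alpha stood between, at 7.24 and 7.43, and the unstimulated TNFRSF1A mutant read 7.73 and 7.58, and 0.27 and 0.10 more with TNF-alpha. The actin 3' to 5' ratio was also lowest in WT replicate 2, at 3.27, and was 4.81 in WT with TNF-alpha, 4.51 and 5.53 in the TNFRSF1A mutant and between 4.41 and 6.47 in the IFN-gamma experiment. Its part in the probe set values was not tested.

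A level of IFNAR1 between the experiments depended on which set was read. Against WT replicate 2, the TNFRSF1A mutant was 0.04 lower by the brightest IFNAR1 set, and 0.68 and 0.86 higher by these sets. TNF-alpha in WT gave 0.28 by the brightest and 0.70 by 11723424_at. Within the IFN-gamma experiment the 4 sets stayed close, with differences between JAK2 mutant and WT replicate 1 from -0.19 to 0.16.

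IFNAR2 went the same way on a smaller scale. Its brightest set, 11724685_x_at, read 8.68, 8.74, 8.84 and 8.82 in the IFN-gamma experiment and 8.41, 8.42, 8.27 and 8.25 in the TNF-alpha experiment, in the array order given above for JAK3. The 2 experiments did not overlap, and the share of all genes that separated in this way was not computed. The experiment term of the additive limma fit was called for 28.9% of all genes, IFNAR2 among them. Set 11724686_x_at was 0.73 lower in WT replicate 2 than in WT replicate 1, and the third, 11749121_a_at, lay in the background range on all 8 arrays. In the JAK2 mutant IFNAR2 was 0.16 above WT replicate 1 and 0.43 above WT replicate 2, and IFNAR1 was 0.16 and 0.32 above them.

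**Figure D4:**
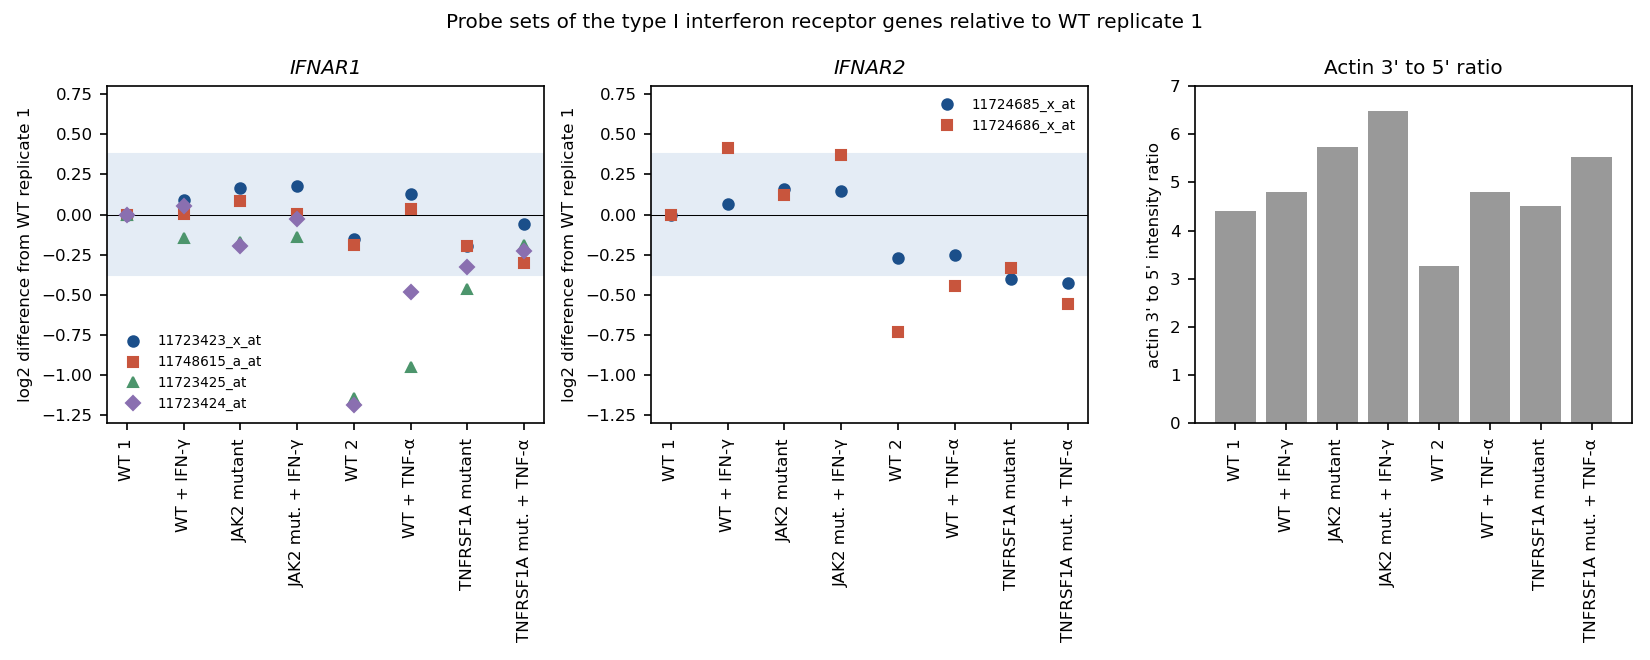
Left and centre, log2 difference from WT replicate 1 (y axis) of the IFNAR1 and IFNAR2 probe sets above the background range on the 8 arrays (x axis), with the band at 1 SD of the WT pair (0.38); right, the actin 3' to 5' intensity ratio of each array as bars from 0. IFNAR1 sets 11723425_at and 11723424_at lie at -1.14 and -1.19 in WT replicate 2, the array with the lowest actin ratio, 3.27.

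The rest of the pathway was read through lists of its other genes. Of 17 interferon ligand genes measured, all lay in the background range on all 8 arrays, with or without cytokine. Of the class II cytokine receptors related to the interferon receptors, 5 of 8 were compared and 0 passed 2-fold with either cytokine. F3, tissue factor, was 0.89 higher in the unstimulated JAK2 mutant and passed 2-fold with IFN-gamma on both sides, at 1.12. IL10RB, which lies between the IFNAR genes, was 0.22 and 0.28 higher in the same comparisons. The list's median was 0.22 without cytokine, beside 0.03 over all genes.

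Some receptors of other cytokines that signal through JAK2 were lower in JAK2 mutant cells. Of 6 compared from a list of 13, 3 passed 2-fold downward against WT replicate 1 without cytokine, beside 1.91% of all genes, and the median was -0.98 beside 0.03. CSF2RB, the shared beta chain for IL-3, IL-5 and GM-CSF, read 8.24 in WT replicate 1 and 7.02 in the mutant. IL3RA, the IL-3 receptor alpha chain, read 8.73 and 7.57. The IL-23 receptor gene IL23R read 7.42 and, in the background range, 3.98, a difference of at least 1.56. With IFN-gamma on both sides 2 of 6 (IL3RA and IL23R) were lower, with a median of -0.60, and CSF2RB stood 0.86 lower. With WT replicate 2 as the control, without cytokine, IL3RA and IL23R were called lower, CSF2RB was not (0.91 lower), IL12RB2, an IL-12 receptor chain, was called higher, and the median was -0.58. IL12RB2 read 6.66 in WT replicate 1 and 5.31, in the background range, in WT replicate 2. Neither cytokine moved any of the 6 by 2-fold in WT.

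Of the common gamma chain receptors, the partners of JAK3, 8 of 9 were compared. IL2RB was the 1 called lower in the JAK2 mutant, at 6.41 in WT replicate 1 and 4.80, in the background range, in the mutant, which gives a bound of at least 0.54. The common gamma chain itself, IL2RG, was 0.49 and 0.60 lower without and with IFN-gamma, under 2-fold. IL15RA, the IL-15 receptor alpha chain, rose by 1.13 with IFN-gamma in WT and differed by 0.21 in the mutant, but it stood only 0.25 above WT replicate 2. In the TNFRSF1A mutant IL2RA (1.06 lower) and IL2RB were lower than WT replicate 2. Against WT replicate 1, 0 of the list were called there, and IL2RA differed by 1.90 between the WT arrays.

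Of the gp130 receptor family, which signals through JAK1, JAK2 and TYK2, 0 of 6 compared passed 2-fold in any of the comparisons. The 2 largest in the unstimulated JAK2 mutant were IL11RA (-0.54) and IL6R (0.41), and the largest with TNF-alpha in WT was IL27RA (0.62). Of the STAT genes and IRF9, 6 of 8 were measured here and compared. IRF9, the DNA-binding partner of the type I interferon STAT complex, rose by 1.53 with IFN-gamma in WT and differed by 0.25 in the JAK2 mutant. STAT3 stood 0.77 higher in WT. In the unstimulated JAK2 mutant 0 of 6 were called, with a median of 0.17 beside 0.03 over all genes.

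Of 20 inhibitors of receptor and JAK signalling, 16 were compared, and SOCS1, which binds and blocks JAK kinases, was the 1 called in any comparison of cytokine or mutant. It rose by 1.88 with IFN-gamma in WT, from 7.84 to 9.72, and read 7.15 and 7.26 in the JAK2 mutant. Against WT replicate 2, at 9.36, the IFN-gamma difference was 0.36, so its size depends on the control array. In the TNFRSF1A mutant it read 7.67, which is 1.70 below WT replicate 2 but near WT replicate 1, against which no inhibitor was called. SOCS2, a STAT target that acts on growth factor receptors, was 0.56 and 0.80 higher in the JAK2 mutant, without and with IFN-gamma, under 2-fold. The median of the 16 in the unstimulated JAK2 mutant was 0.06, beside 0.03 over all genes.

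Of the 8 members, JAK2, JAK3 and IFNGR2 had a range of at least 1 over the arrays, and the genes most like each were sought by Pearson correlation over the 8 arrays among the 1473 genes with such a range. For JAK2 they were PPP1R3B, a glycogen-targeting subunit of a protein phosphatase (r = 0.98), the cAMP phosphodiesterase gene PDE4D (r = 0.98) and SH3RF1 (r = 0.97). PPP1R3B read 8.15 and 8.43 in the JAK2 mutant and between 9.13 and 9.68 elsewhere. For JAK3 they were UBA7, the activating enzyme of ISG15, PLPP1, a lipid phosphatase, and RASGRP3, a Ras exchange factor, at r = 0.97 each. UBA7 read 6.60 and 6.62 in the JAK2 mutant, 7.97 in WT with IFN-gamma and between 7.36 and 7.58 elsewhere. These likenesses are set by the JAK2 mutant arrays, which stand apart from the other 6, and the 8 arrays share 1 normalisation.

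For IFNGR2 they were IL1RL1, the IL-33 receptor (r = 0.98), STX11, a syntaxin (r = 0.95), and NFKBIZ, a nuclear cofactor of NF-kappaB (r = 0.94). IL1RL1 read 7.31 in WT with TNF-alpha and 6.37 and 6.36 in the WT arrays without cytokine. It lay between 5.70 and 5.77 in both mutants. These values were in the background range except in the JAK2 mutant with IFN-gamma, where it lay just above. WT with TNF-alpha was the highest array for each of the 3, as it was for IFNGR2. The 3 genes were picked for their likeness to IFNGR2, whose values that array sets apart. The shared highest array therefore follows from the choice and is not a separate result.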

How the data were processed

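RNA of KBM7 cells was hybridised to 1-colour Affymetrix arrays, 1 array per sample. The deposited values are the authors' probe set intensity on a linear scale. Per the submitters' processing notes, they came from RMA, run in Affymetrix Expression Console 1.1. RMA makes the arrays' distributions equal, so a shift of most genes would not be seen, and dim probe sets are compressed. The return to a linear scale was inferred from the values. Here log2 of the deposited intensity was taken, with no pseudocount, since the lowest intensity was 6.72.

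The platform's annotation gave the gene names, updated through the RefSeq gene table: 44994 of 49395 probe sets had 1 gene, 1832 several, and 2569 stay unnamed here. Differences are between 2 arrays, over 9 pairs. Genes named are the 8 members with all their probe sets, the targeted genes, list members past 2-fold or the 2 largest where none passed, and the 3 genes most like a member with a range of at least 1; further list members (IL10RB, IL2RG, SOCS2, CSF2RB with IFN-gamma) were named after their values were seen. Members and lists were chosen with earlier results of these data known. Alternatives were thresholds, filters, the gene's value, loess, a further quantile normalization, either WT array or their mean as control, and limma 3.58.1 (R 4.3.3) fits across all genes with Benjamini-Hochberg adjustment at 0.05. The limma step was tested on simulated data. Python 3.11.15, numpy 2.4.6, pandas 2.3.3 and matplotlib 3.10.9 did the rest. The background bounds and the reading of each probe set on its own were added after the data were seen.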

Additional observations from a re-analysis of the deposited data

Results flagged for a closer look

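In 7 cases a member's WT and mutant responses to a cytokine had opposite signs, with 1 array on each side; limma's adjusted p of the difference in the fit of the conditions was 1.00 for each. With IFN-gamma, JAK3 differed by 0.57 in WT and -0.03 in the JAK2 mutant, so the mutant response was lower by 0.60 (-0.60). For JAK1 the responses were -0.04 and 0.03, a difference of 0.068, and for IFNAR2 0.06 and -0.02, a difference of -0.080. With TNF-alpha, TYK2 differed by 0.31 in WT and -0.03 in the TNFRSF1A mutant, a difference of -0.33. For JAK1 they were 0.15 and -0.09 (-0.25), for IFNGR1 -0.06 and 0.07 (0.14), and for IFNAR2 0.02 and -0.02 (-0.038). Of these, only the JAK3 difference is larger than the spread of the WT pair, 0.38. That spread is of a single difference between arrays, while each value here is a difference of 2 differences. JAK3 in the JAK2 mutant lay in the background range without cytokine and just above it with IFN-gamma, so its response there has no reliable size. Groups of 4 or more samples, in which a single sample could stand apart, are not in this design.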

How the results depend on the processing

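No paired analysis was possible because the conditions compared share fewer than 2 replicate numbers. Of 352 member differences recomputed under alternatives, 339 stayed within 1 SD of the WT pair of the reported value, 13 moved further (8 with the mean of a gene's probe sets, 5 without the sets marked _x_at or _s_at) and 0 of those past 2-fold changed sign. The sign was opposite in 37 cases, all with a reported difference under 2-fold, and 4 of these moved by more than the SD: JAK2 with IFN-gamma in its mutant, within the background range (from 0.24 to -0.15, mean of probe sets), IFNAR1 in the unstimulated TNFRSF1A mutant (-0.04 to 0.37, mean of probe sets), and, without _x_at and _s_at sets, IFNAR2 in that mutant (-0.13 to 0.36) and in the JAK2 mutant with IFN-gamma (0.08 to -0.41). The mean of its probe sets gave JAK3 -0.07 and -0.36 in the JAK2 mutant, without and with IFN-gamma, and 0.18 with IFN-gamma in WT, since 4 dim sets enter that mean.

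For the unstimulated JAK2 mutant, 1 member was called. The count was 2 at 1.5-fold, 0 at 3-fold, 0 at a log2 level of 8 (JAK2 and JAK3 are not tested there), 0 in the limma fit of the conditions, 3 in the additive fit and 0 with background bounds. With IFN-gamma on both sides, 2 were called. That count was 0 at 3-fold, 0 at the level of 8, 1 with the mean of probe sets, 0 in the fit of the conditions and 3 in the additive fit. At 1.5-fold, TNF-alpha in WT and the TNFRSF1A mutant with TNF-alpha each gained 1 member, IFNGR2, from 0. The share of all genes at 1.5-fold was not computed. The additive fit called 1 member, IFNAR2, between the experiments, beside 28.9% of all genes. In the WT pair 0 members passed 2-fold. The cause of these changes was not tested, other than where fewer genes were tested. Leaving out the WT control array of an experiment and using the other kept each count, at 0 to 1. Depth does not apply to arrays, and JAK2 in its mutant and JAK3 lie near background, which limits their fold. The additive fit has no cytokine term for each genotype, and the fit of the conditions has no contrast between the WT arrays.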
